A study of Mus musculus with 21 samples.

Results

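The genes described here are 30 genes whose products carry the cell through G2 and mitosis, measured by RNA-seq in Ba/F3 cells with JAK2-V617F. Ba/F3 is a pro-B line of the mouse that needs interleukin-3 to grow. The genes were listed by name for their roles, without a threshold on measured values, and all 30 were held by each of the 4 deposited tables, which share 9973 genes with one another. The study asked what a JAK2 inhibitor does to transcription while it is present and after it has been removed. The series has 21 libraries in 7 groups of 3. Exposure lasted 6 h with ruxolitinib (1 μM), an ATP-competitive type I JAK1 and JAK2 inhibitor, with CHZ868 (1 μM), a type II JAK2 inhibitor, or with DMSO (Ruxo_treated, CHZ_treated and DMSO_treated), or it lasted 1 h and was followed by PBS washes and 6 h without inhibitor (Ruxo_wash with its own DMSO_wash, and CHZ_wash with its own DMSO_wash_exp3). All groups carried the same JAK2-V617F construct, introduced into 1 cell line by retroviral transfer. After the transfer the cells were transformed upon interleukin-3 withdrawal, and all groups were bulk cultures.

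CDK1 with its A and B cyclins drives entry into mitosis, and polo-like and Aurora kinases build the spindle. The spindle checkpoint holds the anaphase-promoting complex back until every kinetochore is attached, after which the spindle midzone directs cytokinesis. Most of these genes are transcribed in G2 and M, and many of their promoters carry a cell cycle genes homology region (CHR), bound by MuvB complexes together with B-MYB or FOXM1, and CCAAT boxes, bound by NF-Y. Cytokine signalling through JAK2 and STAT5 supports proliferation of Ba/F3 cells. In bulk libraries a larger share of cells in G2 and M and more of these transcripts per cell cannot be told apart.

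The depth was from 7880000 to 10700000 reads on listed genes in the 15 libraries whose values gave whole reads, with a minimum of 425 reads for any of the 30 genes in any library, and the depth of the 6 libraries of the ruxolitinib washout is unknown. Of 15 markers of pro-B or Ba/F3 cells, 7 were listed, among them Ptprc, Cd79a, Cd79b, Il3ra, Csf2rb and Jak2, and the early B cell genes Pax5, Ebf1, Vpreb1, Igll1, Il7r, Rag1 and Rag2 were among those not listed in any table. Of 12 markers of other cell types, Csf1r, Hba-a1 and Gata1 were listed in every table, and Lyz2 and Col1a1 in the ruxolitinib washout table as well. A pair of libraries stood apart from their own replicates. The share of CPM on mitochondrial genes was 3.67% in Ruxo_treated replicate 2 against 1.68% and 1.71% in the other replicates, and 5.64% in DMSO_wash_exp3 replicate 3 against 2.86% and 2.25%. In the comparisons that use either library, counts among the 30 genes are also given without it. Where an inhibitor group is compared with DMSO, so are values of those genes whose difference moved by over 1.5 times.

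The promoters are shown first because the members were followed as a group. RefSeq windows of 300 bases (250 before and 50 after the transcription start, GRCm38.p6) were found for 25 of the 30 genes, as 28 windows, and Ccna2, Aurkb, Tpx2, Kif20a and Dlgap5 had none. The CHR letters TTTGAA or TTTAAA were searched on both strands and were present in 89.3% of the 28 windows, compared with 27.6% of the 32851 windows of all genes and 25.9% of 27 windows of DNA replication genes. CCAAT, also searched on both strands, was in 78.6% of the mitosis windows, 37.4% of all windows and 70.4% of the DNA replication windows. Both kinds of match stood together in 71.4%, 10.7% and 22.2% of the windows, respectively. CCAAT pairs on the same strand with starts 31 to 34 bases apart were held by the windows of Aurka, Ccnb1, Ccnb2, Cdk1 and Nek2, which is 17.9% of the mitosis windows and 0.895% of all windows. The spacing was chosen after the windows had been seen. TTTAAA reads the same on both strands and was counted once, no matches in the mitosis windows overlap, and a match describes letters, not binding.

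Windows of 6 genes are printed 5′ to 3′ on the strand of the gene, in GRCm38.p6, with CHR and CCAAT matches in capitals (CCAAT on the opposite strand reads ATTGG). Nusap1 had the largest change with CHZ868 at 6 h and Cenpf the smallest, Plk1 was the only gene called after a washout, Ccnb1 and Cdk1 encode the mitotic cyclin and its kinase, and Cenpa was the only gene that fell.
Nusap1, chr2:119618048-119618347, plus strand: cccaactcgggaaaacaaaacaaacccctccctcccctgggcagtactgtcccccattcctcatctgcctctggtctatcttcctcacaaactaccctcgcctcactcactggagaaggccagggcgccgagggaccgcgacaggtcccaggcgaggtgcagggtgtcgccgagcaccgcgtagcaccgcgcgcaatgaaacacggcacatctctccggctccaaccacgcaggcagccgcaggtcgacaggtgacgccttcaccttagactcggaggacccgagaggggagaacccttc
Cenpf, chr1:189688037-189688336, minus strand: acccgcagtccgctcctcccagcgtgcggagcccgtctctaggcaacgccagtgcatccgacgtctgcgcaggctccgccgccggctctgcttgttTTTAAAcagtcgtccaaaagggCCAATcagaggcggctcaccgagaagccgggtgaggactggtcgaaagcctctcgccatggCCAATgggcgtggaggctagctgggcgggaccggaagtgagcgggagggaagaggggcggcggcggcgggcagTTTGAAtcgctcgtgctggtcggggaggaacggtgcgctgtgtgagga
Plk1, chr7:122159185-122159484, plus strand: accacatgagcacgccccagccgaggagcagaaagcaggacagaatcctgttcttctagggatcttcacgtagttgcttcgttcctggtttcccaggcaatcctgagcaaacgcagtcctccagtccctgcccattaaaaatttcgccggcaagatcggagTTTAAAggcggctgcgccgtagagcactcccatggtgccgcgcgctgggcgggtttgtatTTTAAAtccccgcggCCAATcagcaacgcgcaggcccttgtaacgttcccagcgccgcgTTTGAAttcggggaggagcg
Ccnb1, chr13:100786437-100786736, minus strand: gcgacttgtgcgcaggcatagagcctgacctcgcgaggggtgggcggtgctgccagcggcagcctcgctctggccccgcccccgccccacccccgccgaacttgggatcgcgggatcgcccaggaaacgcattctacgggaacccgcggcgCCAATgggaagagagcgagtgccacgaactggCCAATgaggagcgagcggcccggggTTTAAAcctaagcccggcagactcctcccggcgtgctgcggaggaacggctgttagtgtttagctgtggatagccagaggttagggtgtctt
Cdk1, chr10:69352863-69353162, minus strand: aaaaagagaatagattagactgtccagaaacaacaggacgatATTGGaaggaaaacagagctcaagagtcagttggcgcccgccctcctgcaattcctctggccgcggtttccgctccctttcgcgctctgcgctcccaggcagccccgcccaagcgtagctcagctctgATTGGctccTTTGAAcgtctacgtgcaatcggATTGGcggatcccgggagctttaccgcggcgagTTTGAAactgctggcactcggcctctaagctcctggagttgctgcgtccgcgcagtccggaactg
Cenpa, chr5:30666636-30666935, plus strand: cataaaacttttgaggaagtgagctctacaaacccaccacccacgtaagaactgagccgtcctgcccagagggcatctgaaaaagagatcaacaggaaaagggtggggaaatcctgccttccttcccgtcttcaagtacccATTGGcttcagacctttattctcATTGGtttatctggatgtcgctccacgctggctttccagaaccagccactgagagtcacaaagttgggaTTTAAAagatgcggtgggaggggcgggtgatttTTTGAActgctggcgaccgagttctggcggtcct
In Ccnb1 the CCAAT pair lies upstream of a TTTAAA whose first base is at position −42 from the start, and in Cdk1 TTTGAA begins at positions −71 and −15. The windows of Plk1, Cenpa and Cenpf hold both CHR forms and at least 1 CCAAT. The window of Nusap1 holds no match to either, and this says only that these letters are not in this window.

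**Figure D1:**
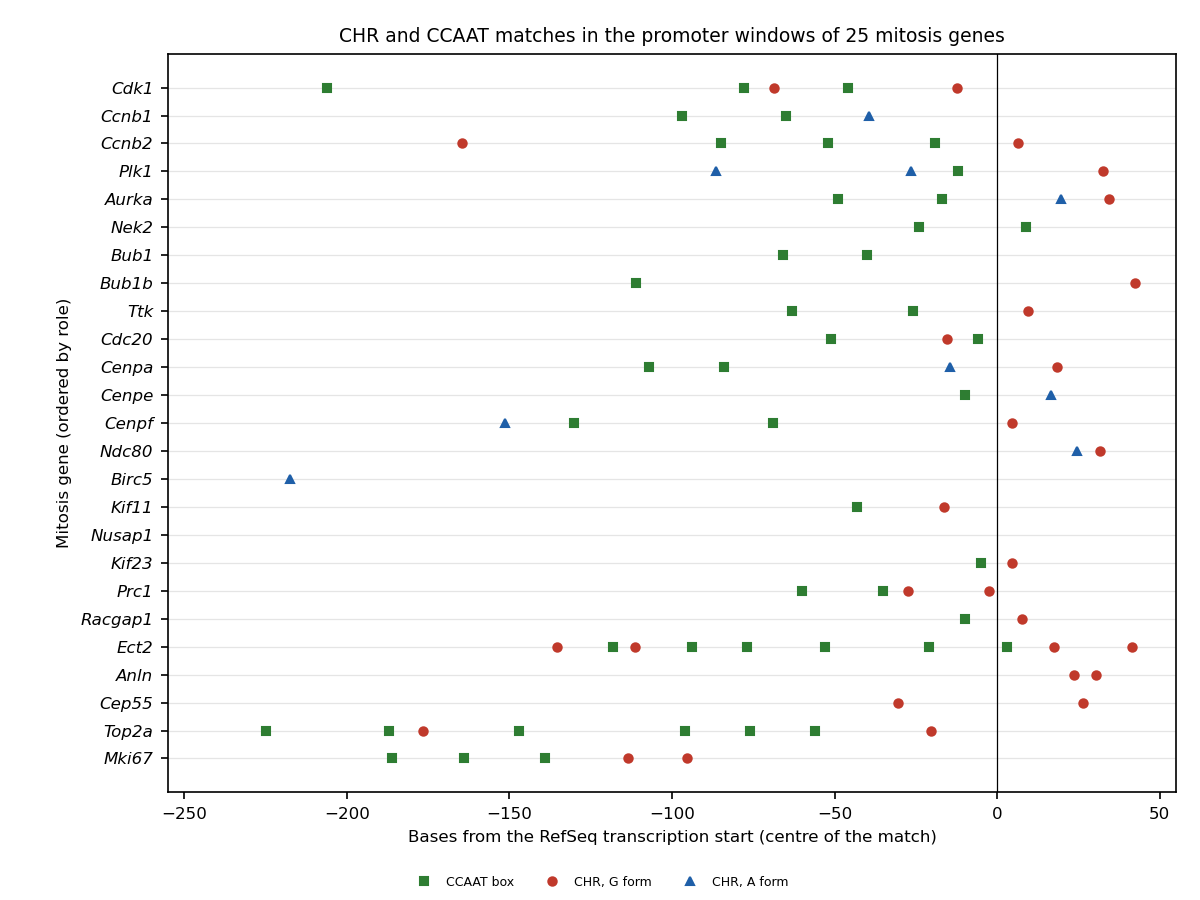
Positions of CCAAT matches (squares) and of the CHR letters with G (circles) or A (triangles) in the promoter windows of 25 mitosis genes. The x axis gives bases from the RefSeq transcription start to the centre of the match, and genes are ordered by role. Ect2, Prc1 and Cep55 have 2 windows each, and the matches of both are drawn. Nusap1 has no match. Ndc80, Birc5, Anln and Cep55 have CHR matches without CCAAT, and Nek2 and Bub1 have CCAAT without CHR letters.

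The first comparison asked how the 30 genes changed while CHZ868 was present. After 6 h of CHZ868, 22 of the 30 genes rose and 1 fell (limma on log2 CPM, Benjamini-Hochberg adjusted p under 0.05 over 11670 genes), where 26.8% of all genes tested rose and 26.4% fell. The median log2 fold change of the 30 genes was 0.53, with a range from −0.35 to 1.23, and the median over all genes tested was −0.0084. Nusap1 rose most, by 2.35-fold, followed by Ccna2 (2.06-fold) and Plk1 (1.80-fold), and Cenpa fell. Summed over the 30 genes, the level was 7956 to 8192 CPM in the DMSO-treated and 10822 to 11622 CPM in the CHZ868-treated libraries, which do not overlap. The share of mitochondrial genes also moved with the group, from 1.29–1.36% to 5.16–6.76%, and in this comparison it cannot be told apart from the treatment. Of the 7 listed pro-B and Ba/F3 markers 2 rose and 3 fell (log2 fold changes from −0.36 to 0.42), and their sum was 3595 to 3667 CPM in the DMSO-treated and 2920 to 3142 CPM in the CHZ868-treated libraries. Of the 3 listed markers of other cell types 1 rose and 1 fell (−1.18 to 0.47), with sums of 476 to 524 and 579 to 635 CPM, respectively, and the part of these in the result was not tested. Without a test, 23 of the 30 genes were higher and 1 lower with no overlap between groups, where 29.6% of all genes were higher and 30.1% lower without overlap. In the sentences that follow, values are log2 CPM of replicates 1, 2 and 3, and a log2 fold change is CHZ868 minus DMSO.

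Among the cyclins and their kinase, 3 of 4 rose. Ccna2, which partners CDK1 and CDK2 from S phase to early mitosis, stood at 9.09, 9.02 and 9.32 log2 CPM in the CHZ868-treated libraries and at 8.15, 8.11 and 8.04 in the DMSO-treated ones, a log2 fold change of 1.04 ± 0.072 (SE) with an adjusted p of 1.49e-08. Ccnb1, the main mitotic cyclin, was at 8.40, 8.39 and 8.20 log2 CPM in the CHZ868-treated libraries and at 7.73, 7.72 and 7.72 in the DMSO-treated ones (0.61 ± 0.064 (SE), adjusted p = 1.43e-06). Ccnb2, its Golgi-associated relative, was at 8.22, 7.98 and 7.91 log2 CPM in the CHZ868-treated libraries and at 7.46, 7.45 and 7.43 in the DMSO-treated ones (0.59 ± 0.074 (SE), adjusted p = 1.02e-05). In all 3 genes every CHZ868-treated library lay above every DMSO-treated library. Cdk1 itself was at 7.22, 6.97 and 6.80 log2 CPM in the CHZ868-treated libraries and at 6.87, 6.99 and 7.02 in the DMSO-treated ones, so that the groups overlapped, and its log2 fold change was 0.035 (95% CI −0.16 to 0.23). The log2 fold changes of its 3 cyclins lie above this interval. Counts of Ccnb1 may include reads of 5 pseudogenes with up to 99.2% identity, and Ccna2 shares an exon stretch with Exosc9 on the opposite strand. Reads of near copies may also be counted for Cdc20 (93.7% identity), Ndc80 (up to 93.5%), Cenpe (up to 92.9%) and Kif11 (90.6%).

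Among the mitotic kinases, Plk1 and Aurka rose, and Aurkb and Nek2 did not pass the test. Plk1, the polo-like kinase that acts from mitotic entry to cytokinesis, was at 8.04, 8.13 and 8.28 log2 CPM in the CHZ868-treated libraries and at 7.30, 7.38 and 7.23 in the DMSO-treated ones, which gave 0.85 ± 0.070 (SE) and an adjusted p of 1.09e-07. Aurka, the Aurora kinase of centrosomes and spindle poles, was at 7.23, 6.96 and 7.14 log2 CPM in the CHZ868-treated libraries and at 6.20, 6.38 and 6.47 in the DMSO-treated ones (0.76 ± 0.087 (SE), adjusted p = 3.44e-06). Both were higher in every CHZ868-treated library than in any DMSO-treated library. Aurkb, the kinase of the chromosomal passenger complex, was at 6.85, 7.04 and 7.004 log2 CPM in the CHZ868-treated libraries and at 6.99, 6.95 and 6.98 in the DMSO-treated ones, with a log2 fold change of −0.0065 (95% CI −0.15 to 0.14). Nek2, which separates centrosomes, was at 7.04, 6.90 and 6.88 log2 CPM in the CHZ868-treated libraries and at 6.80, 6.84 and 6.75 in the DMSO-treated ones. Its groups did not overlap, but the log2 fold change of 0.14 had an adjusted p of 0.0949.

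Of the spindle checkpoint and APC/C genes, 3 of 4 rose. Bub1, a checkpoint kinase at kinetochores, was at 7.96, 7.91 and 7.95 log2 CPM in the CHZ868-treated libraries and at 7.55, 7.38 and 7.52 in the DMSO-treated ones (0.46 ± 0.062 (SE), adjusted p = 2.11e-05). Ttk, the kinase that starts checkpoint signalling, was at 7.32, 7.23 and 7.07 log2 CPM in the CHZ868-treated libraries and at 6.56, 6.67 and 6.71 in the DMSO-treated ones (0.56 ± 0.077 (SE), adjusted p = 2.32e-05). Cdc20, the APC/C activator that the checkpoint restrains, was at 7.85, 7.74 and 7.81 log2 CPM in the CHZ868-treated libraries and at 7.49, 7.53 and 7.50 in the DMSO-treated ones (0.30 ± 0.059 (SE), adjusted p = 6.21e-04). None of these 3 genes showed overlap between groups. Bub1b, which encodes a further component of the checkpoint complex, was at 7.52, 7.73 and 7.75 log2 CPM in the CHZ868-treated libraries and at 7.75, 7.70 and 7.65 in the DMSO-treated ones, and its log2 fold change of −0.035 (95% CI −0.18 to 0.11) did not pass the test.

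The centromere and kinetochore genes were divided, with 2 of 5 higher, 1 lower and 2 not called. Ndc80, the microtubule-binding subunit of the outer kinetochore, was at 7.24, 6.88 and 6.79 log2 CPM in the CHZ868-treated libraries and at 6.33, 6.31 and 6.35 in the DMSO-treated ones (0.64 ± 0.098 (SE), adjusted p = 6.03e-05). Birc5, which encodes survivin of the passenger complex, was at 6.63, 6.68 and 6.75 log2 CPM in the CHZ868-treated libraries and at 6.34, 6.28 and 6.18 in the DMSO-treated ones (0.42 ± 0.075 (SE), adjusted p = 2.32e-04). Both rose without overlap. Cenpa, the centromeric variant of histone H3, was at 7.51, 7.80 and 7.58 log2 CPM in the CHZ868-treated libraries and at 7.91, 7.98 and 8.03 in the DMSO-treated ones, a fall by 0.35 on the log2 scale (SE 0.074, adjusted p = 0.0011), also without overlap. Cenpf, a kinetochore and nuclear matrix protein, was at 7.80, 7.78 and 7.90 log2 CPM in the CHZ868-treated libraries and at 7.84, 7.79 and 7.87 in the DMSO-treated ones, with a 95% CI of −0.13 to 0.12 around −0.0049. Cenpe, the kinetochore kinesin, was at 7.93, 7.80 and 7.94 log2 CPM in the CHZ868-treated libraries and at 7.81, 7.74 and 7.74 in the DMSO-treated ones, with a log2 fold change of 0.13 and an adjusted p of 0.0943. For these 2 genes the groups overlapped.

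All 4 genes of spindle motors and microtubule proteins rose. Nusap1, which binds and bundles spindle microtubules, was at 9.19, 9.08 and 9.21 log2 CPM in the CHZ868-treated libraries and at 7.97, 7.89 and 7.92 in the DMSO-treated ones. This was the largest change of the list, at 1.23 ± 0.057 (SE) with an adjusted p of 2.69e-10. Dlgap5, which stabilises kinetochore fibres, was at 7.68, 7.53 and 7.75 log2 CPM in the CHZ868-treated libraries and at 6.98, 6.78 and 6.85 in the DMSO-treated ones (0.79 ± 0.074 (SE), adjusted p = 4.93e-07). Tpx2, which activates Aurora A on the spindle, was at 8.73, 8.59 and 8.68 log2 CPM in the CHZ868-treated libraries and at 8.22, 8.06 and 8.05 in the DMSO-treated ones (0.56 ± 0.063 (SE), adjusted p = 3.20e-06). Kif11, the motor that pushes spindle poles apart, was at 9.73, 9.55 and 9.69 log2 CPM in the CHZ868-treated libraries and at 9.20, 9.16 and 9.09 in the DMSO-treated ones (0.51 ± 0.060 (SE), adjusted p = 5.66e-06). In each of these genes the lowest CHZ868-treated library exceeded the highest DMSO-treated library.

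All 7 genes of the spindle midzone and cytokinesis rose, again without overlap between the groups. Kif20a, the kinesin that carries the passenger complex to the midzone, was at 8.40, 8.21 and 8.37 log2 CPM in the CHZ868-treated libraries and at 7.44, 7.57 and 7.50 in the DMSO-treated ones (0.82 ± 0.065 (SE), adjusted p = 6.70e-08), and it shares an exon stretch with Cdc23 on the opposite strand. Kif23, the motor of centralspindlin, was at 8.17, 8.12 and 7.92 log2 CPM in the CHZ868-treated libraries and at 7.45, 7.49 and 7.47 in the DMSO-treated ones (0.60 ± 0.068 (SE), adjusted p = 3.57e-06). Racgap1, its partner in that complex, was at 8.37, 8.40 and 8.40 log2 CPM in the CHZ868-treated libraries and at 7.74, 7.76 and 7.79 in the DMSO-treated ones (0.63 ± 0.054 (SE), adjusted p = 1.88e-07). The 2 centralspindlin subunits therefore had log2 fold changes that differed by less than their standard errors. Prc1, which crosslinks midzone microtubules, was at 8.54, 8.44 and 8.51 log2 CPM in the CHZ868-treated libraries and at 7.90, 7.87 and 7.94 in the DMSO-treated ones (0.59 ± 0.056 (SE), adjusted p = 5.46e-07). Cep55, a scaffold for abscission, was at 7.85, 7.70 and 7.81 log2 CPM in the CHZ868-treated libraries and at 7.39, 7.32 and 7.35 in the DMSO-treated ones (0.43 ± 0.062 (SE), adjusted p = 3.23e-05). Changes of the contractile ring genes were smaller. Ect2, the exchange factor that activates RhoA, was at 7.71, 7.77 and 7.64 log2 CPM in the CHZ868-treated libraries and at 7.44, 7.40 and 7.32 in the DMSO-treated ones (0.32 ± 0.063 (SE), adjusted p = 5.61e-04). Anln, which encodes the ring scaffold anillin, was at 7.82, 7.66 and 7.65 log2 CPM in the CHZ868-treated libraries and at 7.39, 7.45 and 7.48 in the DMSO-treated ones (0.27 ± 0.065 (SE), adjusted p = 0.00249).

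Of the chromosome structure genes, Mki67 rose and Top2a did not pass the test. Mki67, which encodes the proliferation marker Ki-67, was at 11.30, 11.10 and 11.42 log2 CPM in the CHZ868-treated libraries and at 10.60, 10.49 and 10.58 in the DMSO-treated ones (0.71 ± 0.074 (SE), adjusted p = 1.26e-06). Top2a, the topoisomerase that untangles sister chromatids, was at 10.34, 10.33 and 10.29 log2 CPM in the CHZ868-treated libraries and at 10.31, 10.26 and 10.26 in the DMSO-treated ones, with a log2 fold change of 0.042 (95% CI −0.071 to 0.15). The direction of Top2a depended on the scaling. After quantile normalization it was −0.20 with an adjusted p of 0.00237, and 2 genes of the list were then called lower.

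Other genes of the pathway were taken from lists that hold none of the 30. For the counts that follow, 26.8% of all genes tested rose and 26.4% fell. Of 63 other mitosis genes, 45 rose and 7 fell, with a median log2 fold change of 0.38. The spindle protein gene Ckap2l rose by 1.26 on the log2 scale, Ube2c, the ubiquitin-conjugating enzyme of the APC/C, by 1.21 and the condensin subunit gene Ncaph by 1.07. Espl1, which encodes separase, fell by 0.49 (adjusted p = 5.29e-05), Hjurp, the chaperone that loads CENP-A, by 0.36 (adjusted p = 1.11e-04), the minus-end motor Kifc1 by 0.41 (adjusted p = 0.0013) and the CDK1-inhibiting kinase Pkmyt1 by 0.39 (adjusted p = 0.00358). Of 21 transcriptional regulators of these genes, 13 rose and none fell, with a median of 0.36. Foxm1 rose by 0.37 ± 0.083 (SE, adjusted p = 0.00151), E2f1 by 0.42 ± 0.13 (adjusted p = 0.0148) and the CDK inhibitor gene Cdkn1a by 0.36 ± 0.064 (adjusted p = 2.42e-04), while Mybl2 was at −0.062 ± 0.10 and did not pass the test. Of 32 DNA replication genes, 21 rose and none fell, with a median of 0.22, and the largest rise was that of Rrm1 at 1.02. The sum over the mitosis genes divided by the sum over the DNA replication genes was 1.86 to 1.89 in DMSO-treated and 1.87 to 1.99 in CHZ868-treated libraries, and these ranges overlapped.

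The same question was asked of ruxolitinib, whose libraries were deposited in a table of their own. Each library was therefore centred on its median over the 11624 genes shared with the table of the DMSO-treated cells, no test was made between the tables, and the result is the count of genes whose groups did not overlap. After 6 h of ruxolitinib, 28 of the 30 genes were higher than DMSO without overlap and none was lower, where 24.6% of all shared genes were higher and 20.1% lower without overlap. The median difference was 0.38 for the 30 genes and 0.035 for all shared genes. Plk1 (0.70), Dlgap5 (0.68), Mki67 (0.65) and Nusap1 (0.61) had the largest differences in centred log2 CPM. Without Ruxo_treated replicate 2, 29 genes were higher without overlap (31.6% of all genes higher, 25.7% lower), Top2a was the exception, and the median was 0.34. The differences of Cenpe (0.34), Cenpf (0.29) and Prc1 (0.23) were 0.18, 0.17 and 0.14 without it. The share of mitochondrial genes was 1.68, 3.67 and 1.71% in the ruxolitinib-treated and 1.29–1.36% in the DMSO-treated libraries. These shares were summed over 14 and 17 listed mitochondrial genes, respectively, from values that were not centred, so they are not like measures. Of the 3 listed markers of other cell types 2 were higher without overlap and none was lower (differences from −0.31 to 0.80, median 0.58), and of the 7 pro-B and Ba/F3 markers 3 were higher and none was lower (−0.16 to 0.48). The part of these in the result was not tested. In this and the following paragraphs on ruxolitinib at 6 h the values are centred log2 CPM of replicates 1, 2 and 3, ruxolitinib first and DMSO last.

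The cyclins were higher in every ruxolitinib-treated library. Ccna2 was at 3.29, 3.81 and 3.18 against 2.90, 2.86 and 2.79 in centred log2 CPM, a difference of 0.58 with replicate 2 and 0.39 without it. Ccnb1 was at 2.83, 2.85 and 2.78 against 2.49, 2.46 and 2.47 (difference 0.34) and its 3 ruxolitinib-treated libraries lay close together. Ccnb2 was at 2.57, 2.67 and 2.62 against 2.21, 2.20 and 2.18 (difference 0.42). Cdk1 overlapped, at 1.92, 1.28 and 1.86 against 1.62, 1.74 and 1.77, since replicate 2 lay below all DMSO-treated libraries and replicates 1 and 3 above them. Its difference was −0.023 with replicate 2 and 0.18 without it.

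All 4 mitotic kinases were higher without overlap. Plk1 was at 2.50, 3.04 and 2.73 against 2.05, 2.13 and 1.98 (difference 0.70, and 0.56 without replicate 2). Aurka was at 1.56, 1.89 and 1.60 against 0.95, 1.13 and 1.22 (difference 0.58). Aurkb was at 2.05, 1.96 and 2.08 against 1.74, 1.70 and 1.73 (difference 0.30). Aurkb, which did not pass the test with CHZ868, was thus higher than DMSO in each of the 3 ruxolitinib-treated libraries. Nek2 was at 1.87, 1.76 and 1.74 against 1.55, 1.59 and 1.50 (difference 0.24).

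The 4 checkpoint and APC/C genes did not overlap either. Bub1 was at 2.69, 2.87 and 2.51 against 2.30, 2.13 and 2.28 (difference 0.45) and Ttk at 1.78, 1.99 and 1.72 against 1.32, 1.42 and 1.47 (difference 0.43). Bub1b was at 2.82, 2.61 and 2.66 against 2.50, 2.45 and 2.41 (difference 0.24). Cdc20 was at 2.78, 2.40 and 2.69 against 2.24, 2.28 and 2.26 (difference 0.36). In Bub1b and Cdc20 replicate 2 was the lowest of the ruxolitinib-treated libraries, and in Bub1 and Ttk the highest.

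All 5 centromere and kinetochore genes were higher, Cenpa included. Cenpa was at 3.10, 2.92 and 3.01 against 2.66, 2.73 and 2.79 (difference 0.28). Ndc80 was at 1.33, 1.37 and 1.14 against 1.09, 1.06 and 1.10 (difference 0.20), and the lowest ruxolitinib-treated library was close to the DMSO-treated ones. Birc5 was at 1.40, 1.54 and 1.42 against 1.09, 1.03 and 0.93 (difference 0.44). Cenpf was at 2.84, 3.12 and 2.67 against 2.59, 2.54 and 2.62 and Cenpe at 2.79, 3.17 and 2.60 against 2.57, 2.49 and 2.49. For Cenpf and Cenpe replicate 2 carried much of the difference, which was 0.29 and 0.34 with it and 0.17 and 0.18 without it.

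The spindle genes were also higher in every ruxolitinib-treated library. Nusap1 was at 3.05, 3.69 and 3.13 against 2.73, 2.64 and 2.68 (difference 0.61, and 0.41 without replicate 2). Dlgap5 was at 2.15, 2.54 and 2.21 against 1.73, 1.53 and 1.60 (difference 0.68). Tpx2 was at 3.21, 3.44 and 3.17 against 2.97, 2.81 and 2.81 (difference 0.41). Replicate 2 was the highest library for each of these spindle genes. Kif11 was at 4.25, 4.47 and 4.08 against 3.95, 3.91 and 3.84 (difference 0.36).

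The 7 midzone and cytokinesis genes were higher without overlap, by 0.19 to 0.55. Kif20a was at 2.77, 2.92 and 2.73 against 2.19, 2.31 and 2.25, and Kif23 at 2.54, 2.82 and 2.59 against 2.20, 2.24 and 2.22 (difference 0.43). Racgap1 was at 2.95, 3.23 and 2.91 against 2.50, 2.51 and 2.54 (difference 0.52). Prc1 was at 2.83, 3.07 and 2.76 against 2.66, 2.61 and 2.70 (difference 0.23, and 0.14 without replicate 2). Anln was at 2.58, 2.68 and 2.48 against 2.14, 2.19 and 2.23 (difference 0.39), Cep55 at 2.44, 2.57 and 2.39 against 2.14, 2.07 and 2.11 (difference 0.36) and Ect2 at 2.34, 2.45 and 2.21 against 2.20, 2.15 and 2.07. Prc1 and Ect2 showed the smallest differences of this group.

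Mki67 was at 5.72, 6.45 and 5.72 against 5.36, 5.24 and 5.34, a difference of 0.65 that was 0.41 without replicate 2. Top2a was at 5.20, 5.21 and 5.05 against 5.06, 5.01 and 5.01 and overlapped (difference 0.13). Ruxo_treated replicate 2 was thus the library with the highest Mki67 and the lowest Cdk1 of its group. Of the other mitosis genes, 44 of 63 were higher without overlap and none was lower, and of the DNA replication genes 18 of 32 were higher and 1 was lower. Among the regulators 8 of 21 were higher and 1 was lower, with Foxm1 higher by 0.58 and Mybl2, E2f1 and Cdkn1a overlapping (0.10, 0.15 and 0.051). For these counts, 24.6% of all shared genes were higher and 20.1% lower without overlap.

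The inhibitors were used at the same dose and time, but they share the DMSO-treated libraries and were normalized in separate tables, so that their values stand side by side without a test of the difference. With the same centring, Nusap1 differed from DMSO by 1.26 with CHZ868 and by 0.61 with ruxolitinib, and Ccna2 by 1.07 and 0.58. Plk1 differed by 0.88 and 0.70, and Mki67 by 0.74 and 0.65. Without Ruxo_treated replicate 2 the ruxolitinib differences were 0.41 for Nusap1, 0.39 for Ccna2, 0.56 for Plk1 and 0.41 for Mki67. The difference was larger with ruxolitinib for Aurkb (0.021 and 0.30), Bub1b (−0.0079 and 0.24), Cenpf (0.022 and 0.29) and Cenpe (0.15 and 0.34). It was also larger for Nek2 (0.17 and 0.24), Cdc20 (0.32 and 0.36), Anln (0.30 and 0.39) and Top2a (0.069 and 0.13). Cenpa was the only gene whose libraries lay on opposite sides of DMSO without overlap. Its difference from DMSO was −0.32 with CHZ868 and 0.28 with ruxolitinib in centred log2 CPM.

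**Figure D2:**
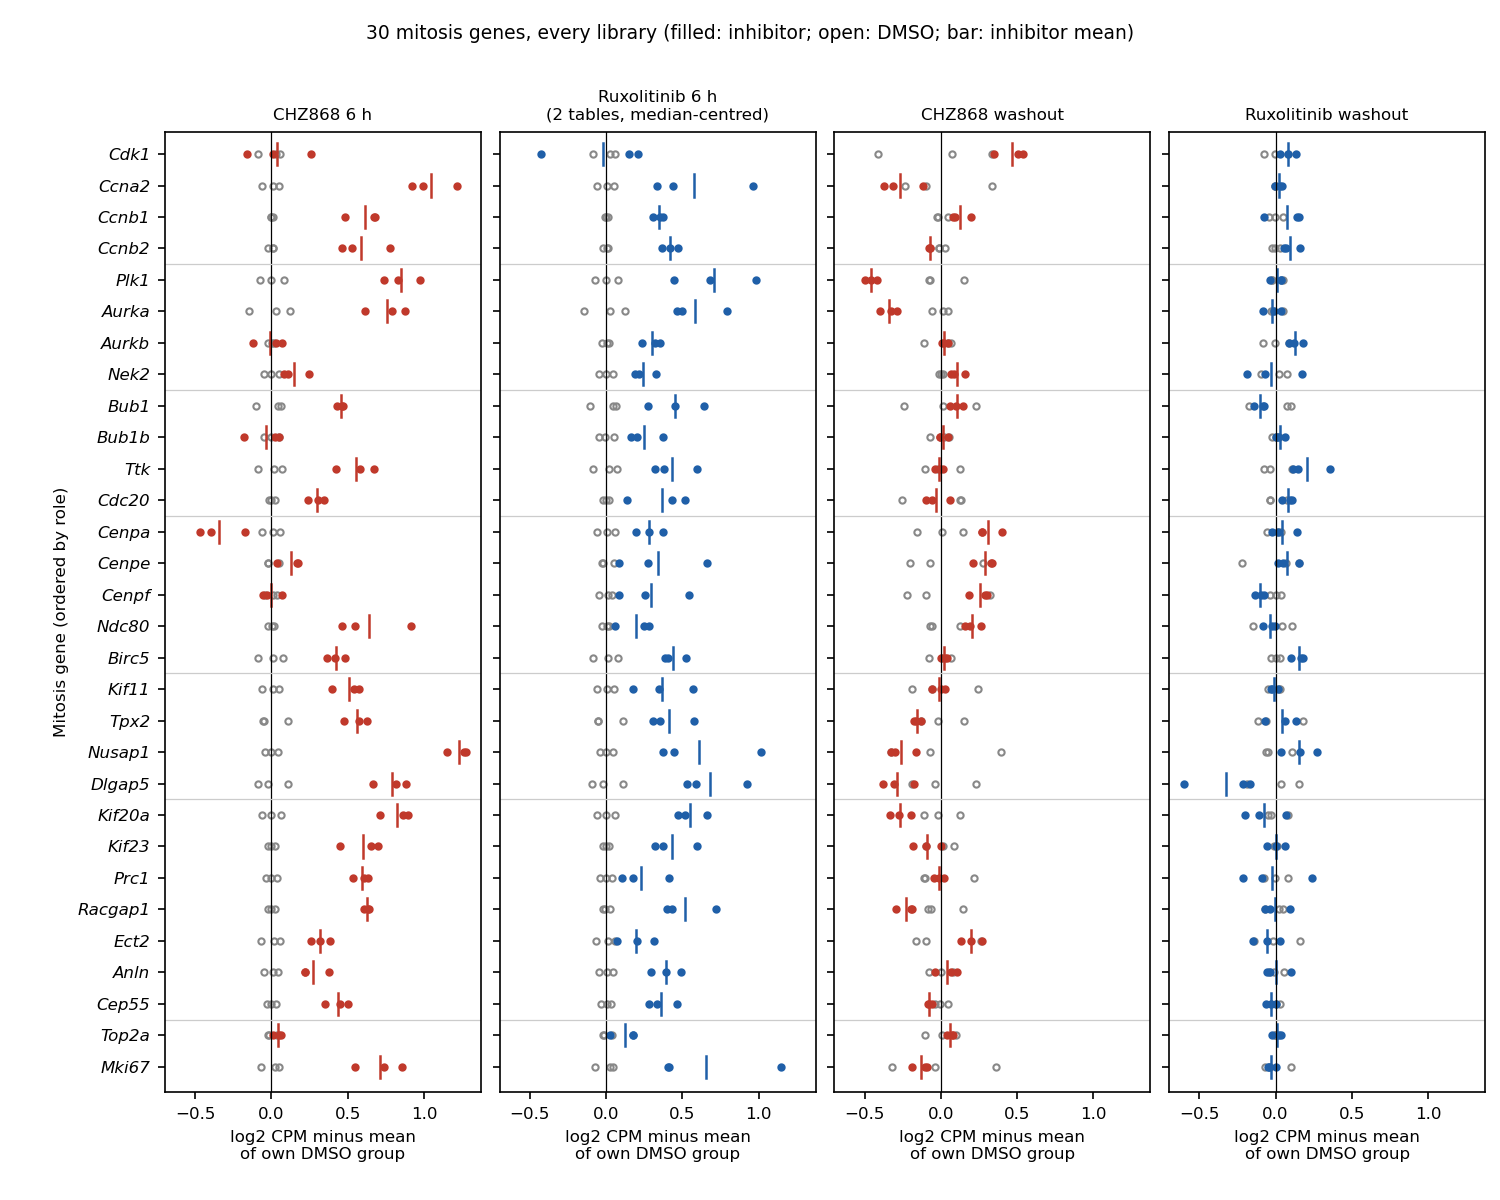
Every library of the 30 mitosis genes in the 4 comparisons, as log2 CPM minus the mean of its own DMSO group. Filled points are inhibitor libraries, open points DMSO libraries and bars inhibitor means. The inhibitor libraries lie to the right of DMSO for most genes at 6 h, with Cenpa to the left under CHZ868, and the washout panels centre near 0.

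The next comparison asked whether the genes stayed changed once CHZ868 had been washed out. At 6 h after washout, 1 of the 30 genes was lower and none was higher (limma, adjusted p under 0.05 over 11355 genes, of which 1.96% rose and 2.07% fell), and 8 of the 30 had an unadjusted p under 0.05, as had 2767 of the 11355 genes. The median log2 fold change of the 30 genes was −0.011, as against 0.53 with CHZ868 present. Plk1 was at 6.82, 6.90 and 6.86 against 7.24, 7.24 and 7.46 log2 CPM, with CHZ868-wash first and DMSO-wash second as in the sentences that follow, and it fell by 0.46 (SE 0.090, adjusted p = 0.0329). Its groups did not overlap. Without a test, 5 genes were higher without overlap (Cdk1, Ccnb1, Nek2, Cenpa and Ndc80) and 7 lower (Ccnb2, Plk1, Aurka, Tpx2, Kif20a, Racgap1 and Cep55), where 14.9% of all genes were higher and 16.1% lower. The fall of Plk1 remained at −0.38 (adjusted p = 0.00433) without DMSO_wash_exp3 replicate 3 and at −0.49 (adjusted p = 0.0135) without replicate 2, and with any of the other 4 libraries left out it did not pass the test (adjusted p from 0.122 to 0.163), nor without the mean-variance trend (adjusted p = 0.103).

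In DMSO_wash_exp3 replicate 3, 21 of the 30 genes lay above the mean of its replicates, and the counts of calls moved with single DMSO-wash libraries. Of the 3 listed markers of other cell types 1 rose (log2 fold changes from −0.084 to 0.78, sums of 190 to 282 CPM in the DMSO-wash and 301 to 381 CPM in the CHZ868-wash libraries), none of the 7 pro-B and Ba/F3 markers was called, and the part of this in the result was not tested. The sum over the 30 genes was 6524, 6090 and 7403 CPM in the DMSO-wash libraries and 6429 to 6493 CPM in the CHZ868-wash libraries. Mitochondrial genes held 2.25 to 5.64% of CPM in the DMSO-wash and 1.75 to 2.10% in the CHZ868-wash libraries, without overlap. The part of this share in the result was not tested. Without replicate 3, 3 genes were higher and 2 lower, with 759 genes of the table higher and 667 lower. Without replicate 2, 2 genes were higher and 4 lower, with 594 genes of the table higher and 704 lower, and leaving out any other library gave no call among the 30 genes. The log2 fold change of 18 of the 30 genes moved by over 1.5 times or turned sign without replicate 3, and those that turned were Aurkb (−0.033), Bub1b (−0.024), Ttk (0.052), Kif11 (0.11), Prc1 (0.098) and Mki67 (0.052). Cenpf, for example, was called higher (0.42, adjusted p = 0.00431) without replicate 3, and Cdk1 was (0.63, adjusted p = 0.0151) without replicate 2.

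None of the cyclins passed the test after the CHZ868 washout. Ccna2 was at 8.26, 8.05 and 7.99 against 8.27, 8.13 and 8.70 log2 CPM (log2 fold change −0.27, 95% CI −0.57 to 0.033, and −0.10 without DMSO_wash_exp3 replicate 3). Ccnb1 was at 7.81, 7.70 and 7.71 against 7.59, 7.60 and 7.66 (0.12) and Ccnb2 at 6.94, 6.95 and 6.95 against 7.01, 7.05 and 7.01 (−0.074). Cdk1 was at 7.27, 7.24 and 7.08 against 6.81, 7.07 and 6.32 (0.46, adjusted p = 0.108), and its lowest CHZ868-wash library lay just above the highest DMSO-wash library. Without replicate 3 its change was 0.26. The other kinases were not called. Aurka was at 6.14, 6.07 and 6.18 against 6.51, 6.48 and 6.41 (−0.34, adjusted p = 0.0547) without overlap, and Aurkb at 6.83, 6.79 and 6.81 against 6.86, 6.83 and 6.67 (0.024).

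No checkpoint or kinetochore gene passed the test. Bub1 was at 7.44, 7.40 and 7.36 against 7.31, 7.06 and 7.53 log2 CPM (0.10), Bub1b at 7.73, 7.73 and 7.78 against 7.79, 7.75 and 7.66 (0.012) and Ttk at 6.04, 6.08 and 6.10 against 6.06, 5.98 and 6.21 (−0.011). Cdc20 was at 7.55, 7.39 and 7.43 against 7.61, 7.62 and 7.23 (−0.032). All 4 overlapped with DMSO-wash. Without replicate 3, Bub1 was at a log2 fold change of 0.22 and Cdc20 at −0.16. Cenpa was at 7.29, 7.16 and 7.16 against 6.90, 7.04 and 6.73 (0.31, adjusted p = 0.0885), higher in every CHZ868-wash library. Cenpf was at 6.91, 7.03 and 7.01 against 6.63, 6.50 and 7.05 (0.26), Ndc80 at 5.73, 5.83 and 5.76 against 5.51, 5.50 and 5.69 (0.20) and Birc5 at 6.63, 6.62 and 6.59 against 6.66, 6.51 and 6.60 (0.023).

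The spindle and cytokinesis genes did not pass the test either. Nusap1 was at 7.50, 7.37 and 7.34 against 7.60, 7.34 and 8.06 log2 CPM (−0.26, 95% CI −0.60 to 0.070), and Dlgap5 at 6.45, 6.52 and 6.65 against 6.79, 6.64 and 7.06 (−0.29). Kif11 was at 8.64, 8.61 and 8.55 against 8.56, 8.43 and 8.86 (−0.011) and Tpx2 at 8.44, 8.40 and 8.41 against 8.55, 8.44 and 8.72 (−0.16). In Nusap1, Dlgap5 and Kif11 replicate 3 was the highest DMSO-wash library. Without it the log2 fold change was −0.066 for Nusap1, −0.17 for Dlgap5, −0.083 for Tpx2, −0.051 for Kif23, 0.33 for Ect2 (0.20 with it), 0.082 for Anln and 0.11 for Top2a. Kif20a was at 7.48, 7.34 and 7.40 against 7.66, 7.57 and 7.80 (−0.27), Kif23 at 7.004, 7.19 and 7.09 against 7.20, 7.09 and 7.27 (−0.093) and Racgap1 at 7.60, 7.50 and 7.60 against 7.73, 7.71 and 7.94 (−0.23). Prc1 was at 7.61, 7.58 and 7.64 against 7.51, 7.52 and 7.84 (−0.011), Cep55 at 7.02, 6.99 and 6.998 against 7.12, 7.04 and 7.07 (−0.075) and Anln at 7.15, 7.05 and 7.19 against 7.01, 7.09 and 7.17 (0.042). Tpx2, Kif20a, Racgap1 and Cep55 were lower in every CHZ868-wash library, by less than the test called. Mki67 was at 9.81, 9.90 and 9.89 against 9.95, 9.68 and 10.36 (−0.13) and Top2a at 10.14, 10.18 and 10.18 against 10.11, 10.00 and 10.20 (0.062).

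Of the regulators, 4 of 21 fell and none rose in this comparison, where 2.07% of all genes fell and 1.96% rose. Foxm1 fell by 0.43 ± 0.097 (SE, adjusted p = 0.0418) and Mybl2 by 0.36 ± 0.082 (adjusted p = 0.0418), and E2f1 and Cdkn1a, at −0.38 and −0.25, did not pass the test. No gene of the table was called without the mean-variance trend, and 0 or 1 when any CHZ_wash library or DMSO_wash_exp3 replicate 1 was left out. Of 32 DNA replication genes 2 fell, with a median of −0.18, and of 63 other mitosis genes 1 rose and 1 fell.

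Whether the effect of CHZ868 differed between exposure and washout was tested as the difference of both effects over 12 libraries and 11175 genes. The effect was higher with CHZ868 present for 20 of the 30 genes and lower for 1, where 23.2% of all genes were higher and 23.8% lower. Leaving out DMSO_wash_exp3 replicate 3 gave 19 genes higher and 3 lower, with 2586 of all genes higher and 2602 lower. The median difference in log2 fold change was 0.50 for the 30 genes and −0.025 for all genes. Nusap1 differed most (1.49 ± 0.17 (SE), adjusted p = 4.40e-06), and Ccna2 (1.31 ± 0.17 (SE), adjusted p = 1.14e-05) and Plk1 (1.31 ± 0.12 (SE), adjusted p = 2.47e-07) followed. Aurka, Kif20a and Dlgap5 differed by 1.10, 1.09 and 1.08. Cenpa differed in the other direction, by −0.66 ± 0.13 (adjusted p = 5.39e-04), with all CHZ868 libraries below DMSO during exposure and all above it after washout. Of the 22 genes that rose at 6 h, Ect2 and Anln did not pass this test (adjusted p = 0.481 and 0.0858). The calls of Bub1 and Cdc20 were near the threshold (adjusted p = 0.0372 and 0.0467) and were kept in 3 and 2 of the 12 fits that left out 1 library. The share of mitochondrial genes was higher with CHZ868 than with DMSO at 6 h (5.16–6.76% against 1.29–1.36%). After washout it was lower (1.75–2.10% against 2.25–5.64%), and its part in this difference was not tested. Exposure time, washing and experiment differ together here and cannot be told apart.

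**Figure D3:**
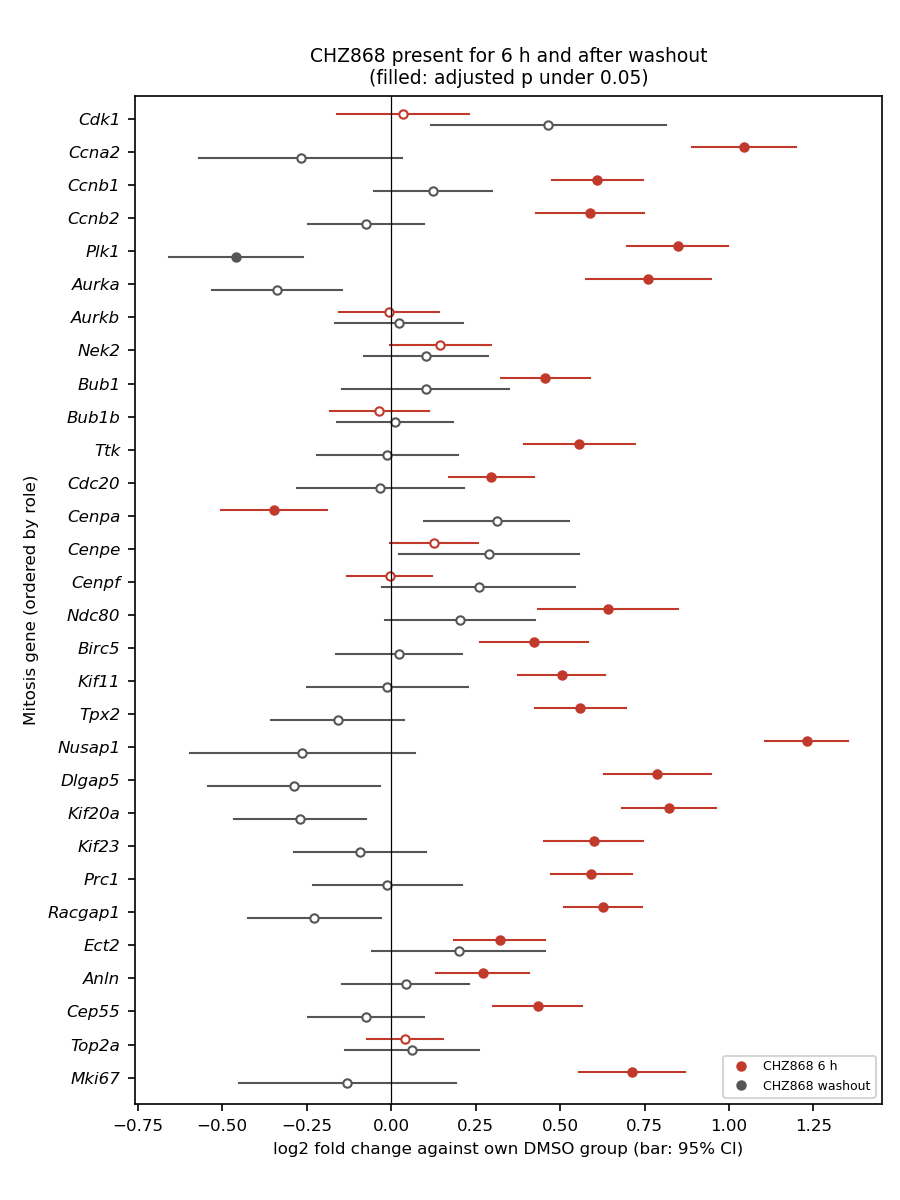
Log2 fold changes of the 30 mitosis genes against their own DMSO groups with CHZ868 present for 6 h (red) and after its washout (grey), with 95% confidence intervals from limma. Filled points passed an adjusted p of 0.05. The red points run from −0.35 to 1.23 with 23 filled, and of the grey points Plk1 alone is filled.

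The ruxolitinib washout was compared with its own DMSO-wash group. None of the 30 genes was called (limma, 13085 genes, of which 0% rose and 0.0229% fell), and at an unadjusted p under 0.05 there was 1 of the 30 genes and 920 of all genes. Without a test, 3 of the 30 were higher without overlap and 1 lower, where 6.3% of all genes were higher and 6.59% lower. The median log2 fold change of the 30 genes was 0.0077, and the range was from −0.33 (Dlgap5) to 0.20 (Ttk). The sum over the 30 genes was 2833 to 2855 CPM in the ruxo-wash and 2771 to 2800 CPM in the DMSO-wash libraries. The 5 listed markers of other cell types summed to 3276 to 3373 and 3811 to 3862 CPM, respectively, with Hba-a1 at 11.65 to 11.89 log2 CPM. The 7 pro-B and Ba/F3 markers summed to 598 to 640 and 691 to 708 CPM. Both marker sums were lower after ruxolitinib without overlap, and the part of these in the result was not tested. These levels were set in another table and are not compared with those above. Values that follow are log2 CPM, ruxo-wash first.

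Ccna2 was at 6.73, 6.76 and 6.78 against 6.73, 6.73 and 6.74 log2 CPM (0.022, 95% CI −0.060 to 0.10), and its libraries lay within a narrow range. Cdk1 was at 8.27, 8.32 and 8.22 against 8.11, 8.27 and 8.18 (0.081), Ccnb1 at 6.97, 6.99 and 6.75 against 6.88, 6.79 and 6.83 (0.073) and Ccnb2 at 6.45, 6.44 and 6.54 against 6.36, 6.41 and 6.38 (0.093). Ccnb2 was higher in every ruxo-wash library by less than the test called. Plk1 was at 6.47, 6.47 and 6.39 against 6.41, 6.40 and 6.48 (0.012, 95% CI −0.095 to 0.12), Aurka at 5.69, 5.76 and 5.81 against 5.74, 5.82 and 5.76 (−0.021) and Aurkb at 6.99, 7.05 and 6.96 against 6.96, 6.79 and 6.87 (0.13). Bub1 was at 5.51, 5.57 and 5.57 against 5.75, 5.48 and 5.72 (−0.10), Bub1b at 6.01, 6.03 and 6.07 against 5.98, 6.03 and 6.01 (0.027), Ttk at 4.76, 4.72 and 4.97 against 4.54, 4.58 and 4.72 (0.20) and Cdc20 at 7.40, 7.45 and 7.46 against 7.32, 7.32 and 7.43 (0.079). Of these, Ttk was higher in every ruxo-wash library (adjusted p = 0.718).

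Birc5 had the smallest unadjusted p of the list. It was at 7.36, 7.37 and 7.29 against 7.19, 7.22 and 7.16 log2 CPM (0.15 ± 0.037 (SE), adjusted p = 0.458). Cenpa was at 7.19, 7.32 and 7.16 against 7.20, 7.21 and 7.12 (0.045), Cenpf at 3.75, 3.81 and 3.79 against 3.89, 3.85 and 3.92 (−0.10) and Ndc80 at 4.56, 4.58 and 4.50 against 4.44, 4.69 and 4.63 (−0.035). Cenpf was lower in every ruxo-wash library, by less than the test called. Nusap1 was at 5.52, 5.76 and 5.64 against 5.42, 5.44 and 5.59 (0.16), Dlgap5 at 5.01, 4.62 and 5.05 against 5.26, 5.37 and 5.03 (−0.33), Kif11 at 6.34, 6.34 and 6.38 against 6.31, 6.40 and 6.38 (−0.013) and Tpx2 at 6.52, 6.39 and 6.59 against 6.64, 6.40 and 6.34 (0.043). The cytokinesis genes overlapped with DMSO-wash. Kif20a was at 5.83, 5.92 and 6.10 against 6.11, 5.98 and 6.00 (−0.079), Kif23 at 6.84, 6.72 and 6.78 against 6.78, 6.77 and 6.79 (0.0020) and Racgap1 at 6.76, 6.79 and 6.92 against 6.75, 6.85 and 6.87 (−0.0021). Prc1 was at 6.81, 6.36 and 6.49 against 6.65, 6.57 and 6.49 (−0.021), Cep55 at 6.33, 6.30 and 6.36 against 6.39, 6.33 and 6.37 (−0.031) and Anln at 5.15, 5.16 and 5.30 against 5.16, 5.25 and 5.19 (0.0042). Mki67 was at 6.82, 6.78 and 6.77 against 6.75, 6.93 and 6.79 (−0.031) and Top2a at 8.45, 8.46 and 8.40 against 8.42, 8.42 and 8.44 (0.011), and both overlapped. Of the 63 other mitosis genes, the 21 regulators and the 32 DNA replication genes none was called, with 5, 0 and 1 at an unadjusted p under 0.05. At that level were 920 of all 13085 genes.

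The washout effects of the inhibitors were then compared as a difference over 12 libraries and 10078 genes. Plk1 was the only gene of the 30 called, with an effect of 0.012 after ruxolitinib and −0.46 after CHZ868, and a difference of 0.47 ± 0.099 (SE) (adjusted p = 0.0371), where 0.972% of all genes were higher and 0.923% lower. The call was kept in 2 of 12 fits that left out 1 library, those without DMSO_wash_exp3 replicate 2 or 3, and in the other fits the adjusted p was from 0.0661 to 0.0889. It was 0.0756 without the mean-variance trend (limma). Leaving out DMSO_wash_exp3 replicate 3 gave 2 of the 30 genes higher and 1 lower, with 262 of all genes higher and 268 lower. Nusap1 (0.42, 95% CI −0.0054 to 0.84) and Cdk1 (−0.38, 95% CI −0.80 to 0.034) did not pass the test. The inhibitor and the washout experiment changed together and cannot be told apart. The processing may differ as well, since the CHZ868 washout values gave whole reads and the ruxolitinib washout values did not. Counts of Plk1 may include reads of a pseudogene with 93.5% identity.

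The libraries that stood apart also did so in the mitosis genes. In Ruxo_treated replicate 2, measured against the mean of replicates 1 and 3, Mki67 deviated by 0.70, Nusap1 by 0.57 and Ccna2 by 0.54, and Cdk1 by −0.64 and Cdc20 by −0.37 on the log2 scale. In DMSO_wash_exp3 replicate 3, measured against replicates 1 and 2, Nusap1 deviated by 0.59, Mki67 by 0.54 and Ccna2 by 0.50, and Cdk1 by −0.61 and Cdc20 by −0.39. Across the 30 genes, the deviation correlated with the CHZ868 log2 fold change at 6 h with r = 0.64 for the former library and r = 0.52 for the latter, and across all genes with r = 0.48 and r = 0.44. These are descriptions across genes of single libraries, neither of which is in the CHZ868 table at 6 h. The sign matched that of the CHZ868 change for 22 and 19 of the 23 called genes, respectively. Of these 23 genes 22 were rises, and 24 and 21 of the 30 genes lay above the replicates. Matches over all genes were not counted. Across the 30 genes, r was −0.74 and −0.36 for Ruxo_treated replicates 1 and 3, and −0.33 and −0.54 for DMSO_wash_exp3 replicates 1 and 2. The deviations within a group sum to 0 for each gene, so these r values depend on one another. DMSO_wash_exp3 replicate 3 received no inhibitor by its label, and both libraries that stood apart had the highest mitochondrial share of their groups. The part of this in the results was not tested.

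**Figure D4:**
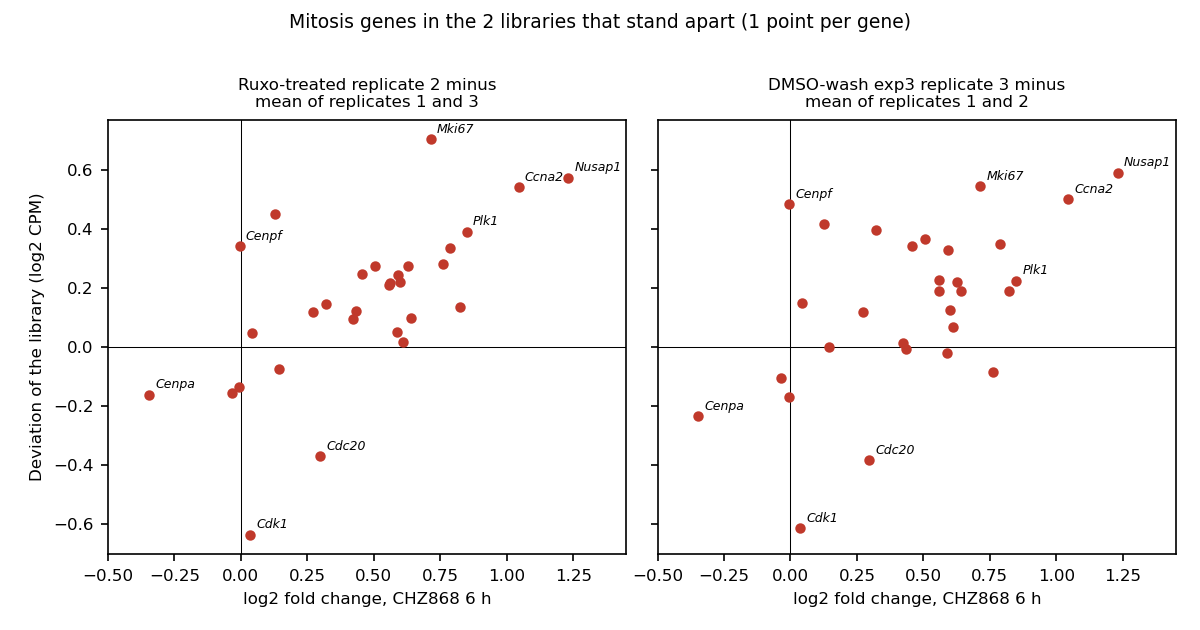
Deviation of 2 libraries from the mean of their own replicates (y axis, log2 CPM) against the log2 fold change with CHZ868 at 6 h (x axis), 1 point per mitosis gene. In both libraries Nusap1, Ccna2 and Mki67 lie at the upper right, and Cdk1 and Cdc20 lie below 0.

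**Figure D5:**
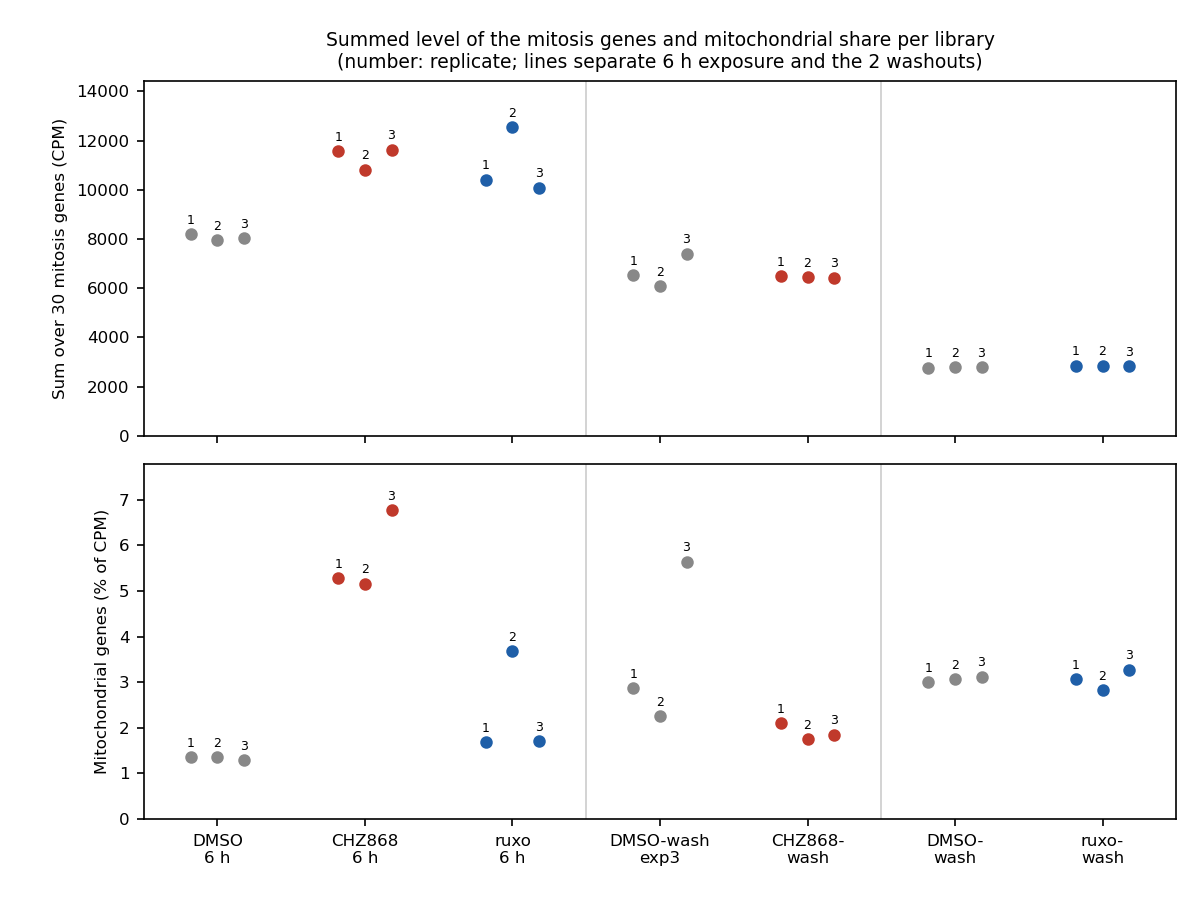
Sum over the 30 mitosis genes in CPM (top) and share of CPM on mitochondrial genes in percent (bottom) for each of the 21 libraries, with the replicate number above each point. At 6 h both quantities are higher in the CHZ868-treated libraries than in the DMSO-treated ones. Ruxo_treated replicate 2 and DMSO_wash_exp3 replicate 3 are the highest of their groups in both panels. Vertical lines separate experiments, and levels are not compared across them.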

How the data were processed

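RNA of Ba/F3 JAK2-V617F cells was isolated with Trizol and sequenced by a company from strand-specific mRNA libraries. The authors deposited 4 tables of log2 CPM by gene symbol, filtered for low expression. The paper's methods name kallisto on GRCm38 transcripts, biomaRt, TMM normalization, voom and limma, whereas the submitters' processing notes name STAR 2.7.3a, edgeR 4.0.16 and GRCm39, and the files do not settle which applies. Whether counting used strand is not given in the sources used here. Of the deposited log2 CPM tables, 3 gave whole reads (100% of low values within 0.05 reads), with 7880000 to 10700000 reads per library, and the ruxolitinib washout table did not. Precision is limited by 3 replicates per group, and since no label says that they were separate cultures, p-values measure the spread between these samples, which may be technical.

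Each inhibitor group was compared with its own DMSO group by limma 3.58.1 in R 4.3.3, with a mean-variance trend and p-values adjusted after Benjamini and Hochberg over every gene fitted, at 0.05. Differences between effects were fitted over 12 libraries of both tables. Ruxo_treated and DMSO_treated came from separate tables and were centred on the median of 11624 shared genes and described without a test, and 3 against 3 libraries allow no exact p below 0.1. The 30 members and the lists were chosen with earlier results of these data known. All members may be named. The largest and smallest change with CHZ868 at 6 h in each of the 7 roles, and any member called after a washout or in a difference, are given in every library. Of the other lists, the largest rise and fall called in CHZ868 6 h in each subgroup may be named, and Foxm1, Mybl2, E2f1 and Cdkn1a throughout. Near copies were sought with blastn 2.17.0 in GENCODE M21 transcripts (at least 90% identity over 300 bases). Alternatives were median centring, quantile normalization, log2(CPM + 1), a mean of at least 3 log2 CPM, no trend, voom weights on recovered reads, the replicate number as a block and leaving out each library.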

Additional observations from a re-analysis of the deposited data

Results flagged for a closer look

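The change of several genes with CHZ868 differed between exposure and washout by the test of the difference (limma over 12 libraries, adjusted p under 0.05). By the same test 23.2% of all genes were higher and 23.8% lower. The difference in log2 fold change, exposure minus washout, was 1.49 for Nusap1, 1.31 for Ccna2 and Plk1, 1.10 for Aurka, 1.09 for Kif20a, 1.08 for Dlgap5, 0.85 for Racgap1, 0.84 for Mki67, 0.72 for Tpx2, 0.69 for Kif23, 0.66 for Ccnb2, 0.60 for Prc1, 0.57 for Ttk, 0.52 for Kif11, 0.51 for Cep55, 0.49 for Ccnb1, 0.44 for Ndc80, 0.40 for Birc5, 0.35 for Bub1 and 0.33 for Cdc20. It was −0.66 for Cenpa. The calls of Bub1 and Cdc20 were kept in 3 and 2 of the 12 fits that left out 1 library. Exposure time, washing and experiment differed together and cannot be told apart.

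The effect of the washout differed between the inhibitors for Plk1, by 0.47 (ruxolitinib minus CHZ868, adjusted p = 0.0371 by limma). This call was kept in 2 of 12 fits that left out 1 library, and was lost without the mean-variance trend (adjusted p = 0.0756) and with the replicate block (adjusted p = 0.0938). Of all genes 0.972% were higher and 0.923% lower in the main fit, and inhibitor and washout experiment cannot be told apart. Cenpa lay on opposite sides of DMSO at 6 h, differing by −0.32 with CHZ868 and by 0.28 with ruxolitinib in centred log2 CPM, with all 3 libraries of each group on its side of DMSO, and the difference was not tested.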

How the results depend on the processing

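With CHZ868 at 6 h, the counts of 22 genes higher and 1 lower were kept under median centring, log2(CPM + 1), the filter on low values, no trend, voom weights and the replicate block. Of all 11670 genes, 2793 to 3328 were then higher and 2865 to 3105 lower, and with the filter 3015 and 2637 of 9973 genes. Under quantile normalization 3175 of all genes were higher and 2935 lower. Quantile normalization gave 2 genes lower and a median of 0.36, and it turned Cdk1 (−0.059) and Top2a (−0.20). Median centring turned Aurkb (0.020) and Cenpf (0.021). With 1 library left out, 22 to 23 genes were higher and 1 was lower. Of all 11670 genes, 2645 to 3255 were higher and 2436 to 3171 lower in these fits. The values of genes not called ranged from −0.076 to 0.13 for Cdk1, −0.044 to 0.050 for Aurkb, −0.076 to 0.036 for Bub1b and −0.042 to 0.020 for Cenpf. For ruxolitinib at 6 h, 25 to 29 genes were higher and none was lower under the alternatives run. Of all 11624 shared genes, 2854 to 3671 were then higher and 2148 to 2983 lower without overlap.

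For the difference between CHZ868 exposure and washout, quantile normalization gave 17 genes higher, 4 lower and a median of 0.36. The fit without the trend gave 18 higher and 1 lower, and leaving out 1 library gave 17 to 20 genes higher and 1 to 3 lower. Of all 11175 genes, 2628 were higher and 2596 lower under quantile normalization, and 2491 higher and 2596 lower without the trend. In the fits with 1 library left out, 2333 to 2741 of them were higher and 2310 to 2842 lower. After the CHZ868 washout, the fit without the trend called 0 members and 0 genes of the table, and with 1 library left out 0 to 3 members were higher, 0 to 4 lower and 0 to 1426 genes called. Quantile normalization turned Ttk (0.0081) and Kif11 (0.0032), and median centring turned Bub1b (−0.00011). The leave-one-out ranges were −0.064 to 0.052 for Ttk, −0.10 to 0.11 for Kif11, −0.024 to 0.037 for Bub1b, −0.033 to 0.057 for Aurkb and −0.29 to 0.052 for Mki67. After the ruxolitinib washout, 9 genes of the table were called without the trend and 0 to 1 with 1 library left out, and no member in any of these fits. Anln was −0.0079 under quantile normalization, and the leave-one-out ranges were −0.046 to 0.034 for Anln, −0.0012 to 0.037 for Plk1, −0.0020 to 0.029 for Top2a, −0.11 to 0.018 for Ndc80, −0.038 to 0.0029 for Kif11 and −0.066 to 0.021 for Mki67. For the difference between washouts, the fit without the trend called 0 members and 14 genes, and leaving out 1 library gave 0 to 2 members higher, 0 to 1 lower and 5 to 628 genes. Bub1b was −0.029 under quantile normalization and −0.010 to 0.051 with 1 library left out, with ranges of −0.12 to 0.092 for Kif11, −0.088 to 0.0013 for Anln, −0.10 to 0.0023 for Top2a and −0.083 to 0.26 for Mki67. The causes of these changes were not tested.

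Samples with the same replicate number did not deviate together (r from −0.07 to 0.05 over 12 pairs across genes), so the numbers were not taken as pairs. The replicate block gave 22 genes higher and 1 lower with CHZ868 at 6 h, 1 higher and 1 lower after its washout (Cdk1 added, adjusted p = 0.0443), 20 higher and 2 lower for the difference between them, 0 members and 0 genes after the ruxolitinib washout, and 0 members and 6 genes for the difference between washouts. Of all 11670 genes, 3140 were higher and 3052 lower with CHZ868 at 6 h in this fit. After its washout 243 of 11355 genes were higher and 296 lower, and for the difference 2522 of 11175 were higher and 2587 lower. As differences within replicate numbers, 29 genes were higher with ruxolitinib at 6 h, as were 3645 of all 11624 genes, with 2941 lower.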
